A study of Mus musculus with 9 samples.

Results

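Neurexins, neuroligins and LRRTM proteins are adhesion molecules that hold the 2 sides of a synapse together. Their mRNAs were followed here through RNA immunoprecipitation (RIP) of CELF2 from the newborn mouse cortex, a method in which an antibody pulls a protein down and the RNA that comes with it is sequenced. The genes were chosen by name: the neurexins *Nrxn2* and *Nrxn3*, the neuroligins *Nlgn1*, *Nlgn2* and *Nlgn3*, and the leucine-rich repeat genes *Lrrtm1*, *Lrrtm2*, *Lrrtm3* and *Lrrtm4*. They are 9 of the 21250 protein-coding genes with at least 1 matched transcript in the deposited table, and every transcript row of each was used, 72 of 107384 rows.

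Each of the 9 libraries came from the cytoplasmic fraction of cortex of mice at postnatal day 0 that were heterozygous for the *Celf2* knockin (KI) allele encoding CELF2 p.R493H. The 3 CELF2-KI RIP libraries, called CELF2 RIP below, used 10 µg of a rabbit antibody to CELF2, and the 3 IgG RIP libraries used the same amount of normal rabbit IgG, both over 3 hours. The 3 input libraries were aliquots of the fraction kept back before the antibody was added. Both controls carry the same allele, no wild-type library was part of these data, and nothing in the labels says that the antibody tells the altered CELF2 from the normal one that a heterozygous animal also makes. How many animals stand behind a replicate is not given in the sources used here, so p-values measure the spread between these libraries.

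As background, neurexins are receptors on the presynaptic membrane that reach across the cleft to ligands on the postsynaptic side. Neuroligins and LRRTMs are ligands of this kind, and several of them compete for overlapping sites on neurexins. Neuroligin-1 acts mainly at excitatory and neuroligin-2 at inhibitory synapses, neuroligin-3 is found at both, and the LRRTMs belong to excitatory synapses. Neurexin genes are known for long genomic spans and for very many splice isoforms. CELF2 is an RNA-binding protein that takes part in splicing in the nucleus and in the fate of mRNAs in the cytoplasm.

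Protein-coding genes received between 13519265 and 16836385 estimated counts in CELF2 RIP, between 9344325 and 14960841 in IgG RIP and between 55229679 and 78483586 in input. The 9 genes together took 0.408% to 0.497% of the unscaled protein-coding counts in CELF2 RIP, 0.294% to 0.317% in IgG RIP and 0.299% to 0.342% in input. In this sum CELF2 RIP lay above both controls without overlap. The sum is led by the genes with the most counts and does not speak for each gene. Of 58166 counts in CELF2 RIP replicate 1, *Nrxn2* held 22079, *Nlgn2* 17448, *Nrxn3* 8618, *Nlgn3* 6992 and *Lrrtm2* 140. The log2 fold change was above 0 for 5 of 9 genes over each control. Levels are given as CPM, counts relative to library size, with library sizes scaled by TMM, a method that assumes most genes keep their level. They are not divided by transcript length, so they compare libraries for 1 gene and not 1 gene with another. Conditions were tested pairwise by edgeR's quasi-likelihood test over the 15263 protein-coding genes with enough counts, all 9 genes included, and calls needed 2-fold and an FDR (Benjamini-Hochberg) under 0.01. Unless stated otherwise, FDR values of genes below come from that test and are adjusted over all genes tested. Those of transcript rows, of transcript usage and of refits come from their own tests. Other scalings moved the median log2 fold change of all genes by between -0.07 and -0.37 for CELF2 RIP over IgG RIP and by between -0.14 and -0.46 over input, which matters for genes near 2-fold.

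Markers of the cell types in the lysate differed between conditions as well. Summed over 7 excitatory neuron markers, CELF2 RIP held 1672 to 2280 CPM, IgG RIP 894 to 1041 CPM and input 971 to 1136 CPM, and 4 of the 7 were called higher than in IgG RIP. Summed over 7 radial glia markers, the same ranges were 167 to 258, 458 to 503 and 579 to 623 CPM, with 4 of 7 called lower than in IgG RIP. For 8 erythroid markers, of which 6 were tested, they were 93.9 to 96.5, 370 to 586 and 879 to 1136 CPM, with 5 of 6 called lower. Of the other lists, 2 of 6 inhibitory neuron markers, 1 of 5 astrocyte markers and 1 of 5 tested microglia markers were called higher than in IgG RIP, 2 microglia and 1 of 6 endothelial markers lower, and none of 5 oligodendrocyte precursor markers either way. None of the markers was at 0 in all libraries, and their part in the results on the adhesion genes was not tested. Input was set aside from the fraction before the pull-downs, so an input and a pull-down of the same fraction came from the same cells. Which libraries share a fraction is not settled here, and what lies behind the marker differences was not tested. The level of a marker in bulk tissue does not tell the number of cells of a type from the RNA per cell.

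The families did not move as blocks. *Nlgn2*, the neuroligin of inhibitory synapses, was the only 1 of the 9 called higher in CELF2 RIP than in both controls, and *Lrrtm2* was the only 1 called lower than both. Among all genes tested, 7.58% were called higher and 9.52% lower than both controls. Against IgG RIP alone, *Nlgn2* and *Nlgn3* were called higher, 2 of 9 beside 13.4% of all genes, and *Lrrtm2* was called lower, 1 of 9 beside 13.5%. Against input, *Nrxn2*, *Nrxn3* and *Nlgn2* were called higher, 3 of 9 beside 14.6%, and *Lrrtm2* was called lower, 1 of 9 beside 15.5%. Taking the 9 genes together, their median on the log2 scale was 0.47 over IgG RIP, against -0.06 for all genes, and 0.44 over input, against 0.19. The lowest CELF2 RIP library exceeded the highest of the 6 control libraries for *Nrxn2*, *Nlgn2* and *Nlgn3*, 3 of 9 beside 25.2% of all genes, and the reverse was true of *Lrrtm2*, 1 of 9 beside 19.9%. Taken against 1 control at a time, the CELF2 RIP libraries lay wholly above IgG RIP for 4 genes (beside 30.0% of all genes) and below it for 1 (27.4%), and wholly above input for 5 (42.1%) and below it for 3 (31.8%). The IgG RIP libraries lay above input for 2 genes (27.1%) and below it for 5 (29.4%). The log2 fold change was above 0 for 5 of 9 genes over IgG RIP (48.0%), 5 over input (56.4%) and 4 for IgG RIP over input (49.8%). With counts this small, the shares of the 9 genes are descriptions and say nothing of the group as a whole.

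**Figure D1:**
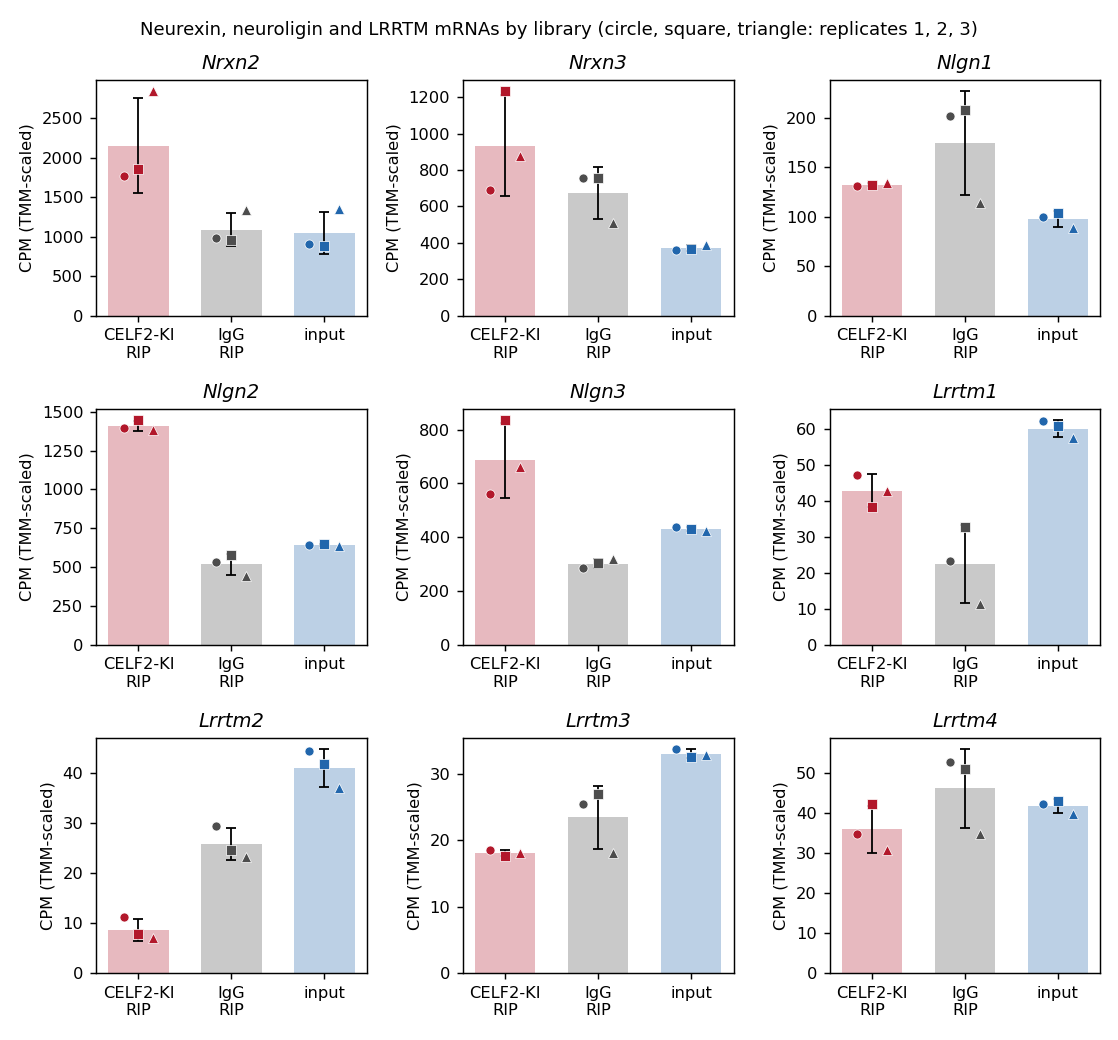
Level of each mRNA in every library, in CPM on TMM-scaled library sizes, with its own linear axis from 0 for each gene. Bars are means of 3 libraries, error bars are SD, and circles, squares and triangles mark replicates 1, 2 and 3; *Nlgn2* at 1384 to 1448 CPM in CELF2 RIP and *Lrrtm2* at 6.96 to 11.2 CPM stand clear of all 6 controls on opposite sides.

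*Nrxn2* lies on chromosome 19 (positions 6418756 to 6533217 of GRCm38.p6, the assembly of the gene table and the patch level of mm10) and encodes a presynaptic neurexin. Its level was 1767, 1851 and 2845 CPM in replicates 1, 2 and 3 of CELF2 RIP, 979, 957 and 1335 CPM in IgG RIP, with input at 907, 886 and 1350.1 CPM. CELF2 RIP exceeded the controls throughout, IgG RIP and input overlapped, and replicate 3 was the highest of its condition in all 3 conditions. The log2 fold change was 1.04 over input (SE 0.23, FDR 0.00298) and 0.98 over IgG RIP (SE 0.23, FDR 0.00458), which passed the FDR threshold but fell just short of 2-fold at 1.98-fold. IgG RIP and input differed by 0.06 (FDR 0.858). Both values over the controls sit at the threshold, and single libraries decide the call. Over IgG RIP, *Nrxn2* was called without CELF2 RIP replicate 1 (1.11), CELF2 RIP replicate 2 (1.08) or IgG RIP replicate 3 (1.15), and over input it was not called without CELF2 RIP replicate 3 (0.79), input replicate 1 (0.83) or input replicate 2 (0.82). Under the other 4 scalings it was called against neither control, with log2 fold changes of 0.62 to 0.91 over IgG RIP and 0.58 to 0.90 over input.

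*Nrxn3* spans 1612235 bases of chromosome 12 (88722701 to 90334935), the longest span of the 9 genes. Its level in replicates 1, 2 and 3 was 689.6, 1235 and 879.7 CPM in CELF2 RIP, 757, 755 and 508 CPM in IgG RIP, with input at 362, 365 and 390.1 CPM. The 2 pull-downs overlapped, and both lay above input in every library. Over input the log2 fold change of CELF2 RIP was 1.33 (SE 0.21, FDR 0.000412), or 2.51-fold, and that of IgG RIP was 0.85 (SE 0.21, FDR 0.0104), which was not called but passed 2-fold and the FDR threshold without IgG RIP replicate 3 (1.02). CELF2 RIP over IgG RIP gave 0.47 (SE 0.21, FDR 0.0818). *Nrxn3* stayed called over input without any 1 library (1.08 to 1.51), but not with total counts (0.85) or with TMM over coding and noncoding genes (0.92).

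*Nlgn2* (chromosome 11, 69823123 to 69837784) had the most even levels among CELF2 RIP replicates of any gene called here. It was at 1396, 1448 and 1384 CPM in CELF2 RIP, 530.0, 578 and 443 CPM in IgG RIP, with input at 642, 645 and 635 CPM. Each CELF2 RIP library was above each control, and every IgG RIP library lay below every input library. On the log2 scale the change over IgG RIP was 1.45 (SE 0.11, FDR 9.16e-06), or 2.73-fold, and 1.14 over input (SE 0.11, FDR 1.9e-05), or 2.20-fold. IgG RIP over input was at -0.31 (FDR 0.0453), which was not called. Against IgG RIP, *Nlgn2* was called under every scaling tried and without any 1 library (1.34 to 1.55). Against input it was called without any 1 library (1.02 to 1.15) but under none of the other 4 scalings (0.68 to 0.999). Relative to the median of all genes, the value over input was 0.94, and 0.74 to 0.94 under those scalings. The 0.74 is from TMM over coding and noncoding genes, whose median was taken over 18541 genes and not over the 15263 coding ones. Over the same genes, a change of scaling cancels out of this value.

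*Nlgn3* (chromosome X, 101299179 to 101321350) followed *Nlgn2* against IgG RIP and less so against input. Its level was 559.5, 837 and 660.5 CPM in CELF2 RIP, 283, 303 and 317 CPM in IgG RIP, with input at 438, 429 and 423 CPM. The 3 conditions did not overlap, with CELF2 RIP highest and IgG RIP lowest. CELF2 RIP was higher than IgG RIP by 1.19 on the log2 scale (SE 0.14, FDR 6.46e-05), or 2.28-fold. Over input the log2 fold change was 0.67 (SE 0.14, FDR 0.00184), or 1.59-fold, under the 2-fold threshold. The value over IgG RIP was 0.81 with total counts, 0.92 with the upper quartile and 0.96 with TMM over coding and noncoding genes, none of which was called.

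*Nlgn1*, the neuroligin of excitatory synapses, spans 911059 bases of chromosome 3 (25421808 to 26332866) and was called in no comparison. It was at 131, 132 and 134 CPM in CELF2 RIP, 201, 208 and 114 CPM in IgG RIP, with input at 100.1, 104 and 88.2 CPM. Both pull-downs lay above input in every library, and IgG RIP, with a low replicate 3, lay on both sides of CELF2 RIP. The log2 fold change of CELF2 RIP against IgG RIP was -0.40 (SE 0.20, FDR 0.11), that against input 0.44 (SE 0.20, FDR 0.0748) and 0.84 for IgG RIP over input (SE 0.20, FDR 0.00765). The last was called, at 1.07, once IgG RIP replicate 3 was left out. With total counts the value of CELF2 RIP over input was -0.02.

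**Figure D2:**
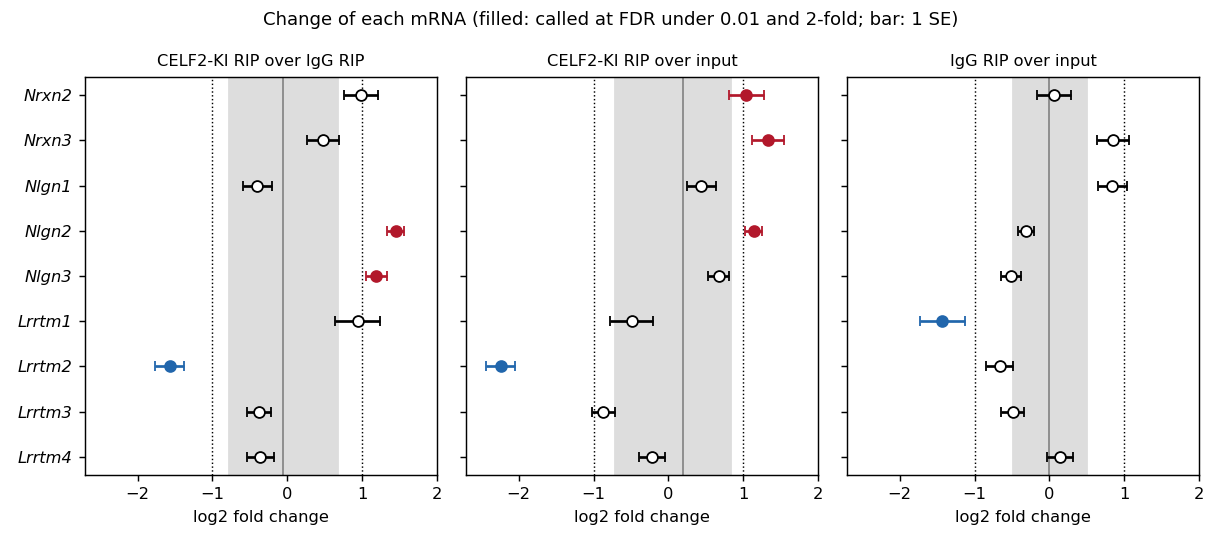
log2 fold change of each mRNA in the 3 comparisons, with bars of 1 SE, filled points for genes called at FDR under 0.01 and 2-fold, and dotted lines at 2-fold. The grey band is the middle 50% of all 15263 genes and the grey line their median; *Nlgn2* (1.45 and 1.14) and *Lrrtm2* (-1.57 and -2.24) are filled in both CELF2 RIP panels.

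*Lrrtm2* encodes a postsynaptic ligand of neurexins at excitatory synapses and was the lowest of the 9 genes relative to both controls. It had 140, 102 and 78 counts in CELF2 RIP, or 11.2, 7.86 and 6.96 CPM. IgG RIP held 471, 249 and 325 counts, or 29.5, 24.7 and 23.3 CPM, and input held 2790, 3789 and 2282 counts, or 44.4, 41.8 and 36.9 CPM. The 3 conditions did not overlap. CELF2 RIP was at 0.336 of the IgG RIP level (log2 fold change -1.57, SE 0.19, FDR 8.74e-05) and at 0.212 of the input level (-2.24, SE 0.20, FDR 1.06e-05). IgG RIP itself was at 0.63 of input (-0.67, FDR 0.0161), which was not called. Both calls held without any 1 library and under all 4 other scalings, between -1.93 and -1.44 against IgG RIP and between -2.69 and -2.11 against input.

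*Lrrtm1* (chromosome 6, 77229210 to 77259915) was ordered differently, with input highest. It was at 47.4, 38.2 and 42.9 CPM in CELF2 RIP, 23.2, 32.8 and 11.3 CPM in IgG RIP, with input at 62.2, 60.9 and 57.5 CPM. The 3 conditions did not overlap, and IgG RIP was spread over nearly 3-fold between replicates 2 and 3. CELF2 RIP over IgG RIP gave a log2 fold change of 0.94 (SE 0.30, FDR 0.0207), which was not called except without IgG RIP replicate 2 (1.32). CELF2 RIP over input gave -0.49 (SE 0.29, FDR 0.163). IgG RIP was below input by -1.43 (SE 0.30, FDR 0.00424), the only call among the 9 genes in that comparison, where 5.01% of all genes were called lower and 6.79% higher. That call was lost by its FDR, which reached 0.0163, without IgG RIP replicate 1 or without any 1 input library, while the size stayed between -1.81 and -1.11. No gene of the 9 was called higher in IgG RIP than in input by edgeR or by DESeq2, and 2, *Nrxn3* and *Nlgn1*, were higher at an unadjusted p under 0.05 in edgeR's test.

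*Lrrtm3* (chromosome 10, 63928497 to 64090255) and *Lrrtm4* (chromosome 6, 80018858 to 80810162) were not called in any comparison. *Lrrtm3* was at 18.5, 17.6 and 18.1 CPM in CELF2 RIP, 25.5, 26.9 and 18.1 CPM in IgG RIP, with input at 33.7, 32.5 and 32.8 CPM. The CELF2 RIP libraries lay below all input libraries and overlapped IgG RIP at its replicate 3. Against input the log2 fold change was -0.87 (SE 0.16, FDR 0.00086), short of 2-fold, and against IgG RIP it was -0.37 (SE 0.16, FDR 0.0691). Under the other 4 scalings *Lrrtm3* was called lower than input (-1.33 to -1.01). *Lrrtm4*, a ligand that also binds heparan sulfate on its partners, was at 34.6, 42.1 and 30.8 CPM in CELF2 RIP, 52.6, 51.0 and 34.7 CPM in IgG RIP, with input at 42.1, 43.1 and 39.8 CPM. All 3 conditions overlapped for this gene, with log2 fold changes of -0.36 over IgG RIP (SE 0.18, FDR 0.112) and -0.22 over input (SE 0.18, FDR 0.313).

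The order of the 3 conditions split the genes in a way the families do not. CELF2 RIP had the highest mean for *Nrxn2*, *Nrxn3*, *Nlgn2* and *Nlgn3*. IgG RIP had the highest mean for *Nlgn1* and *Lrrtm4*, and input for *Lrrtm1*, *Lrrtm2* and *Lrrtm3*. The top and the second condition differed at an FDR under 0.01 for *Nrxn2* (0.00458), *Nlgn2* (1.9e-05) and *Nlgn3* (0.00184). They did not for *Nrxn3* (0.0818), *Nlgn1* (0.11), *Lrrtm1* (0.163), *Lrrtm2* (0.0161), *Lrrtm3* (0.0296) or *Lrrtm4* (0.537).

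Ratios between genes of the same family do not depend on how libraries are scaled, and they were compared within each library. All 10 pairs within the 3 families were taken in 3 comparisons, with an exact two-sided permutation test of 3 libraries against 3, which cannot go below p = 0.1. After Benjamini-Hochberg adjustment over the 30 tests the smallest value was 0.136, so none could pass, and the values are a description. The log2 ratio of *Nlgn2* to *Nlgn1* was 3.42, 3.45 and 3.37 in CELF2 RIP, 1.40, 1.47 and 1.96 in IgG RIP, with input at 2.68, 2.63 and 2.85. CELF2 RIP was above input and IgG RIP below it in every library, and the mean ratio was 3.49-fold higher in CELF2 RIP than in IgG RIP (exact permutation p = 0.1, adjusted 0.136). *Nlgn3* to *Nlgn1* differed between the pull-downs by 1.52 on the log2 scale, while *Nlgn2* to *Nlgn3* differed by 0.29 and overlapped.

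Within the LRRTM family, *Lrrtm2* was the gene set apart in CELF2 RIP. The log2 ratio of *Lrrtm1* to *Lrrtm2* was 2.08, 2.28 and 2.62 in CELF2 RIP, -0.35, 0.41 and -1.04 in IgG RIP, with input at 0.49, 0.54 and 0.64. The CELF2 RIP values lay above all controls, and the difference was 1.77 from input and 2.65 from IgG RIP (exact permutation p = 0.1 for each, adjusted 0.136). For *Lrrtm3* to *Lrrtm2* the differences were 1.40 from input and 1.24 from IgG RIP, and for *Lrrtm4* to *Lrrtm2* 2.04 and 1.25. *Lrrtm3* to *Lrrtm4* was the pair with the same ratio in both pull-downs, at a mean of -0.98 ± 0.25 (SD, n = 3) in CELF2 RIP and -0.97 ± 0.07 in IgG RIP, both below the -0.34 ± 0.06 of input. *Nrxn2* to *Nrxn3* overlapped in all 3 comparisons.

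**Figure D3:**
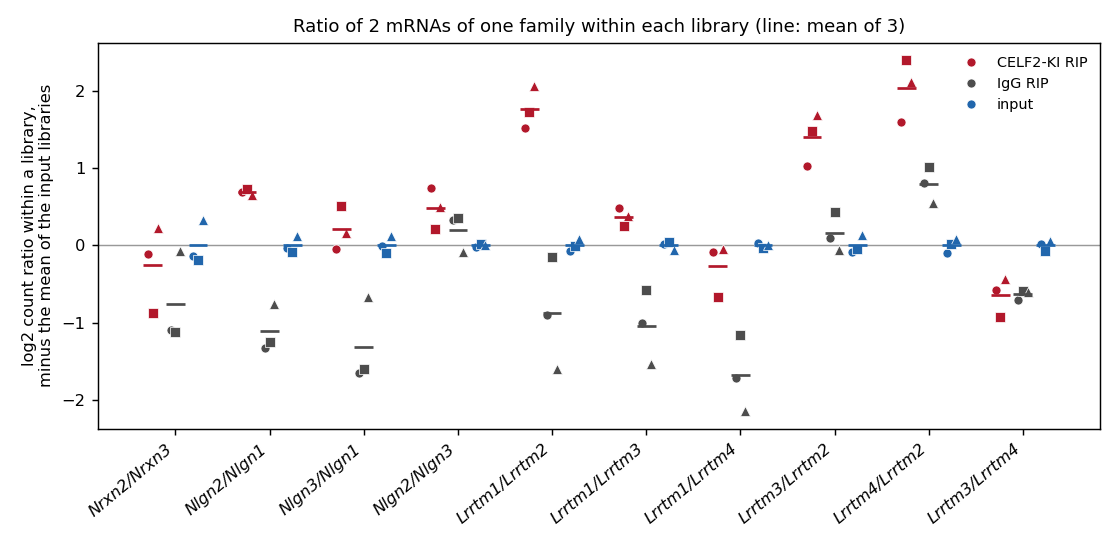
log2 ratio of the counts of 2 genes of 1 family in each library, minus the mean of the 3 input libraries for that pair (horizontal lines are means of 3 libraries; circles, squares and triangles are replicates 1, 2 and 3). Ratios over *Lrrtm2* and over *Nlgn1* are the ones in which CELF2 RIP stands above IgG RIP in every library, as do the 2 other ratios of *Lrrtm1*.

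The table gives an estimated count per RefSeq transcript, and the 72 rows are spread unevenly over the genes. *Nrxn3* has 40 rows, *Nlgn1* 13, *Lrrtm4* 9, *Nrxn2* and *Nlgn2* 3 each, and the other 4 genes 1 each. Of the 72 rows, 48 reached an estimated count of at least 0.5 in any library, 3 stayed between 0 and 0.5, and 21 were at exactly 0 throughout, 19 of them of *Nrxn3*. Computer-predicted transcripts held 96.8% of the counts of *Nrxn3*, 65.5% of *Lrrtm4*, 58.2% of *Nlgn2* and 49.0% of *Nlgn1*. A row is a share of reads that isoforms of a gene have in common, divided by the authors' pseudoalignment, and rows varied far more between replicates than genes did, with a common biological coefficient of variation of 0.995 against 0.221. The same edgeR test was run over 39129 rows of protein-coding genes, 39 of them of these genes, and rows were scaled on their own libraries, which put their log2 fold changes lower than those of genes by about 0.2 (IgG RIP) to 0.5 (input) for the genes with 1 row.

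**Figure D4:**
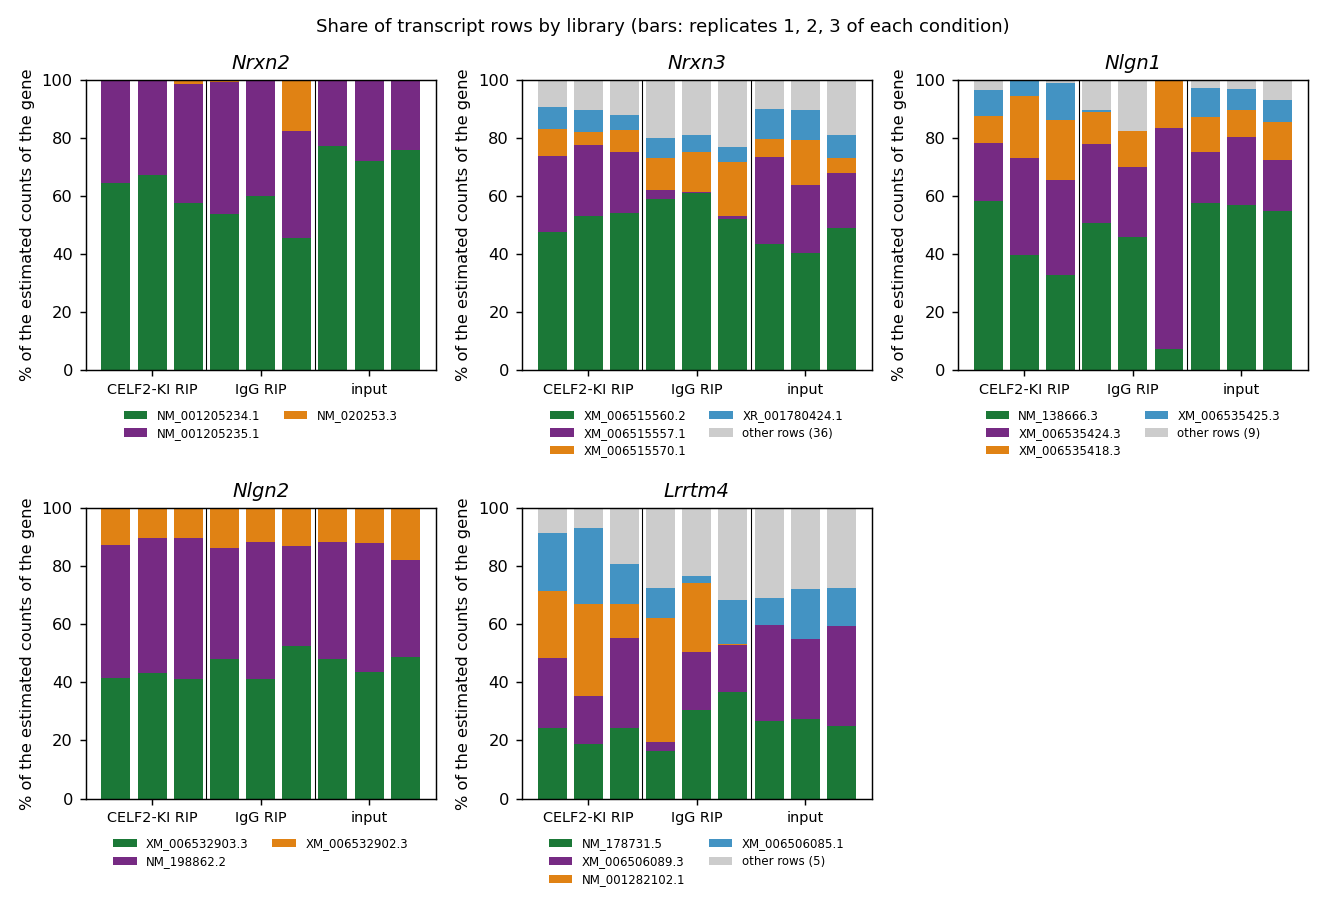
Share of each gene's estimated counts, in percent, held by its transcript rows in each of the 9 libraries, for the 5 genes with more than 1 row. Up to 4 rows with the highest mean level are coloured and the rest are grey; the purple *Nrxn3* row XM_006515557.1 holds 20.8% to 26.1% in CELF2 RIP, 0.524% to 3.09% in IgG RIP and 18.9% to 30.0% in input.

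*Nrxn3* was the gene whose transcripts differed most clearly in how they were shared out. Its predicted transcript XM_006515557.1 had 2247, 3954 and 2046 counts in CELF2 RIP and 6826, 7765 and 4548 in input, but 373, 39.9 and 68.7 in IgG RIP. Its share of the gene was 26.1%, 24.7% and 20.8% in CELF2 RIP, 3.09%, 0.524% and 0.97% in IgG RIP, with input at 30.0%, 23.5% and 18.9%. CELF2 RIP and input overlapped, and IgG RIP lay far below both. A test of unequal transcript usage (edgeR's diffSpliceDGE, FDR over 8795 genes) called *Nrxn3* for CELF2 RIP over IgG RIP (FDR 1.33e-07) and for IgG RIP over input (FDR 1.42e-06), and gave an FDR of 0.916 for CELF2 RIP over input. Unequal usage was called in 1 of the 5 genes with several tested rows for CELF2 RIP over IgG RIP, where 5.08% of all genes were, in 1 of 5 over input, where 3.3% were, and in 2 of 5 for IgG RIP over input, where 6.14% were.

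The transcript XM_006515560.2 held the largest part of *Nrxn3*, 47.7%, 53.0% and 54.3% of the counts in CELF2 RIP, 58.8%, 60.9% and 52.2% in IgG RIP, with input at 43.3%, 40.3% and 48.9%. It was not called between the pull-downs (log2 fold change 0.08, SE 0.26, FDR 0.907). XM_006515570.1 held 4.17% to 9.10% in CELF2 RIP and 11.2% to 18.5% in IgG RIP, without overlap, and XR_001780424.1 held 5.18% to 10.5% over all 9 libraries. Without XM_006515557.1 the summed level of *Nrxn3* was 712 ± 211 CPM (SD, n = 3) in CELF2 RIP, 662 ± 138 CPM in IgG RIP, against 283 ± 31.6 CPM in input. The log2 ratio of these means was 0.10 between the pull-downs and 1.33 over input. The row left out was picked for its difference, and rows that went the other way were kept, so a smaller difference was bound to follow.

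At the level of single rows, 4 were called higher in CELF2 RIP than in IgG RIP (4 of 39 beside 3.19% of all rows) and 1 lower (beside 3.14%). The 4 were XM_006515557.1 of *Nrxn3* (log2 fold change 4.13, SE 0.70, FDR 0.00691), XM_006532903.3 and NM_198862.2 of *Nlgn2*, and NM_001252074.2 of *Nrxn3*, a row of low level that is named after its values were seen. NM_001252074.2 had 79.1, 110 and 136 counts in CELF2 RIP and 826, 1127 and 814 in input and was at 0 in all 3 IgG RIP libraries. Against a floor of 3 counts over the 3 IgG RIP libraries, it was at least 101-fold higher in CELF2 RIP and at least 205-fold higher in input, and it was the single row with a lower call for IgG RIP against input (1 of 39 beside 1.65%), a call lost without any 1 input library. XM_017314989.1 of *Nrxn3*, also named after its values were seen, went the other way, with 98.7, 299 and 0.02 counts in CELF2 RIP, 1407, 1304 and 926 in IgG RIP, with input at 566, 955 and 409. It was not called between the pull-downs (log2 fold change -3.45, SE 1.33, FDR 0.134).

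The calls of the *Nrxn3* rows over IgG RIP changed with the fit. With the replicate number as a block, XM_006515557.1 had an FDR of 0.0173 and NM_001252074.2 of 0.0124, and neither was called. Leaving out 1 library put the FDR of XM_006515557.1 between 0.0147 and 0.0218 in 8 of 9 cases, with log2 fold changes of 3.74 or more. The gene-level usage call of *Nrxn3* kept an FDR under 0.01 in each of these refits.

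*Lrrtm4* was called for unequal usage over input in both pull-downs (FDR 0.00055 in CELF2 RIP and 0.000269 in IgG RIP), and the call rested on 1 row. NM_001282102.1 had 99.9, 172 and 40.04 counts in CELF2 RIP and 359, 122 and 2.07 in IgG RIP, and rounded to 0 in all 3 input libraries, which were deeper. Its share of *Lrrtm4* reached 31.5% in CELF2 RIP and 42.8% in IgG RIP. Without any 1 input library the FDR was 0.0264 to 0.0292 for CELF2 RIP and 0.0145 to 0.0163 for IgG RIP, so neither passed. Between the pull-downs, usage of *Lrrtm4* gave an FDR of 0.799, and as single rows NM_001282102.1 (FDR 0.029 for CELF2 RIP and 0.0317 for IgG RIP over input), NM_178731.5, XM_006506089.3 and XM_006506085.1 were called in no comparison.

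All 3 rows of *Nlgn2* had positive log2 fold changes over IgG RIP. NM_198862.2 was higher in CELF2 RIP than in IgG RIP by 1.43 on the log2 scale (SE 0.21, FDR 0.00373), XM_006532903.3 by 1.06 (SE 0.08, FDR 0.000615), and XM_006532902.3 gave 1.01 (SE 0.20, FDR 0.0129), which was not called. The call of NM_198862.2 was lost with the replicate block (FDR 0.0104), without any 1 CELF2 RIP library, IgG RIP replicate 1 or input replicate 1 (FDR 0.011 to 0.0146), and that of XM_006532903.3 with total counts (0.92). Usage of *Nlgn2* was not called between the pull-downs (FDR 0.534), with NM_198862.2 at 45.7% to 48.9% of the gene in CELF2 RIP and 34.4% to 47.0% in IgG RIP. For *Nrxn2*, the curated transcript NM_001205234.1 held 64.3%, 67.2% and 57.5% in CELF2 RIP, 53.9%, 59.9% and 45.6% in IgG RIP, with input at 77.1%, 72.1% and 75.9%, so that both pull-downs lay below input. NM_001205235.1 held nearly all of the rest, at 32.8% to 41.1% in CELF2 RIP and 22.9% to 27.9% in input. The remaining row, NM_020253.3, held 17.7% in replicate 3 of IgG RIP and at most 1.46% in any other library. Usage of *Nrxn2* gave an FDR of 0.0753 for CELF2 RIP over input and 0.0139 for IgG RIP over input. With the replicate block the latter was 0.000777, which would be called.

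For *Nlgn1* the shares were uneven between replicates, mainly in IgG RIP. Its curated transcript NM_138666.3 held 58.3%, 39.8% and 32.9% in CELF2 RIP, 50.8%, 45.8% and 7.13% in IgG RIP, with input at 57.5%, 56.8% and 54.6%. Replicate 3 of IgG RIP stood apart here, with 76.3% of the gene in XM_006535424.3, which held 17.6% to 33.4% in the other 8 libraries. XM_006535418.3 lay between 9.30% and 21.3% everywhere. XM_006535425.3 held 5.08% to 12.7% in CELF2 RIP and 0.00999% to 0.749% in IgG RIP, yet its log2 fold change of 3.85 (SE 1.17, FDR 0.0676) was not called. Usage of *Nlgn1* passed in no comparison (FDR 0.0758, 1 and 0.0366). No row of the 9 genes was called higher than input in either pull-down by edgeR's test (0 of 39 beside 0.94% for CELF2 RIP and 0.879% for IgG RIP), with 5 and 7 at an unadjusted p under 0.05. The 2 rows called lower than input in CELF2 RIP, beside 4.51%, were the single rows of *Lrrtm2* and *Lrrtm3*. The lower scale of the row fit, given above, bears on the higher and the lower calls alike. Over input, *Lrrtm3* was at -1.35 by row and -0.87 by gene. *Nlgn3*, called over IgG RIP by gene (1.19), was not called there as its single row (0.95), short of 2-fold. The call of the *Lrrtm3* row was lost with the replicate block (FDR 0.0208), without CELF2 RIP replicate 2 or 3 and without any 1 input library (FDR 0.0181 to 0.027), and the gene-level test did not make it.

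The LRRTM genes differ in where they lie. *Lrrtm1*, *Lrrtm2* and *Lrrtm3* lie inside the spans of the alpha-catenin genes *Ctnna2*, *Ctnna1* and *Ctnna3*, which link cadherins to actin, while *Lrrtm4* does not lie in one. Alpha-catenin introns are not part of the transcripts counted, and whether their RNA added reads to the LRRTM rows was not tested. *Ctnna1*, the host of *Lrrtm2*, was at 30.1 ± 10.19 CPM (SD, n = 3) in CELF2 RIP, 54.7 ± 7.43 CPM in IgG RIP, against 59.9 ± 2.91 CPM in input, with log2 fold changes of -0.86 over IgG RIP (FDR 0.00646) and -0.99 over input (FDR 0.00246), just short of 2-fold. *Ctnna2*, the host of *Lrrtm1*, gave 0.11 over IgG RIP (FDR 0.494) and 0.49 over input (FDR 0.00756), and the first of these was -0.10 to -0.25 under 3 other scalings. *Ctnna3* was near the limit of testing with means of 0.567 to 1.13 CPM. None of the 3 was called by edgeR in any comparison. Against input, an unadjusted p under 0.05 was reached by 1 upwards and 1 downwards, and DESeq2 called 1 lower.

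Genomic span was set beside the changes as a description. Over the 9 genes, Spearman's rho between span and the log2 fold change of IgG RIP over input was 0.80, a description across genes that share the same 6 libraries. Over all 15263 genes it was 0.24. *Nrxn3*, *Nlgn1* and *Lrrtm4*, the 3 longest, were the ones with mean IgG RIP above input beside *Nrxn2*. The 99 genes with a span at least that of *Lrrtm4* had a median log2 fold change of 0.66 in IgG RIP over input, 0.49 in CELF2 RIP over input and -0.13 in CELF2 RIP over IgG RIP. For CELF2 RIP over input, rho was 0.30 over the 9 genes and 0.28 over all genes, and for CELF2 RIP over IgG RIP it was -0.27 and 0.20. The part of span in any result was not tested.

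Partner genes and other adhesion genes were taken as lists by known function, with earlier results of these data known. The 22 genes of extracellular partners of neurexins, neuroligins or LRRTMs (cerebellins, C1q-like proteins, neurexophilins, latrophilins, calsyntenins and others) were all tested. Of them, 5 were called higher in CELF2 RIP than in IgG RIP and 0 lower by edgeR or DESeq2 (2 lower at an unadjusted p under 0.05), and 19 of 22 lay above 0, where over all genes 13.4% were called higher, 13.5% lower and 48.0% lay above 0. The median was 0.59 over IgG RIP, against -0.06 for all genes, and 0.37 over input, against 0.19. *Adgrl1*, a latrophilin receptor, and *Mdga2*, which binds neuroligins and keeps neurexins off them, were called higher than both controls. They were 2 of 22 beside 7.58% of all genes, and 0 were called lower than both, beside 9.52%. Against input alone, 2 of 22 were called higher and 1 lower, beside 14.6% and 15.5%. *Adgrl1* was at 3659 ± 120 CPM (SD, n = 3) in CELF2 RIP, 1828 ± 151 CPM in IgG RIP, against 1645 ± 65.3 CPM in input, and *Mdga2* at 286 ± 90.3, 143 ± 16.4 and 93.2 ± 4.29 CPM. Both sat on the 2-fold threshold over IgG RIP, at log2 fold changes of 1.002 for *Adgrl1* and 1.005 for *Mdga2*. Neither was called against IgG RIP under any other scaling, nor without CELF2 RIP replicate 2, IgG RIP replicate 3 or any 1 input library, and *Adgrl1* also not without CELF2 RIP replicate 3.

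Of 12 intracellular partners, the scaffolds and adaptors that bind the cytoplasmic tails, 11 were tested and *Sytl1* was not. *Lin7c* was called higher than both controls, at 222 ± 36.0 CPM (SD, n = 3) against 85.6 ± 11.5 CPM in IgG RIP, against 102 ± 4.06 CPM in input. Over input, *Lin7c* was called under none of the other 4 scalings (0.65 to 0.98) and not without CELF2 RIP replicate 2 or input replicate 3. *Dlg4*, which encodes the excitatory scaffold PSD-95, *Gphn*, which encodes the inhibitory scaffold gephyrin, and *Lin7b* were called lower than both. That made 1 of 11 higher than both, beside 7.58% of all genes, and 3 of 11 lower, beside 9.52%. Against IgG RIP alone, 1 was called higher and 3 lower, beside 13.4% and 13.5%. Against input alone, 2 were called higher and 3 lower, beside 14.6% and 15.5%. *Dlg4* was at 101 ± 10.21 CPM against 259.9 ± 8.27 and 310 ± 27.3 CPM, with log2 fold changes of -1.37 over IgG RIP (FDR 1.15e-05) and -1.62 over input (FDR 3.06e-06). *Gphn* was at 20.8 ± 0.56 CPM against 61.0 ± 10.3 and 53.4 ± 0.92 CPM, with -1.55 (FDR 1.48e-05) and -1.36 (FDR 2.33e-05). The mRNA of gephyrin, which anchors neuroligin-2, and that of neuroligin-2 thus lay on opposite sides of both controls. The median of the 11 was -0.07 over IgG RIP and 0.01 over input.

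Among 37 other trans-synaptic adhesion genes, all tested, 10 were called higher than IgG RIP and 0 lower by edgeR or DESeq2 (6 lower at an unadjusted p under 0.05), beside 13.4% and 13.5% of all genes. Higher than both controls were 7, beside 7.58%, and lower than both 0, beside 9.52%. The 7 became 3 with total counts or TMM over coding and noncoding genes, 4 with the upper quartile and 1 with glmTreat, which tests against 2-fold itself. The median was 0.52 over IgG RIP and 0.48 over input. Of these 7, the 4 with the largest rise over IgG RIP were *Lrfn1* (log2 fold change 2.44, FDR 8.69e-06), a leucine-rich repeat protein that binds PSD-95, *Cadm3* (2.35, FDR 2.28e-05), *Igsf9b* (1.58, FDR 0.000252), an immunoglobulin protein of inhibitory synapses, and *Igsf9* (1.40, FDR 2.58e-05). Over input they gave 1.64, 1.57, 2.07 and 1.40 in the same order. *Lrfn1*, *Cadm3* and *Igsf9b* lay beyond *Nlgn2* against both controls.

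**Figure D5:**
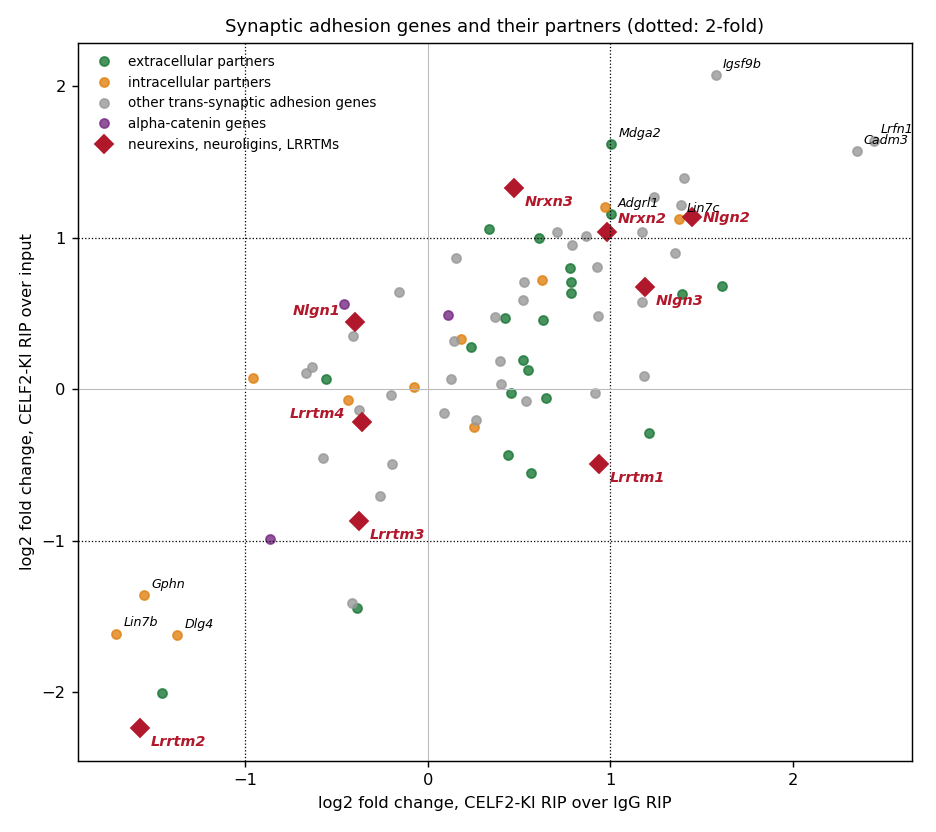
log2 fold change over IgG RIP (x axis) and over input (y axis) for CELF2 RIP, with dotted lines at 2-fold. Red diamonds are the 9 genes and circles are the genes of the 4 partner and adhesion lists by colour; *Nlgn2* lies in the upper right beyond 2-fold on both axes and *Lrrtm2* in the lower left with *Dlg4*, *Gphn* and *Lin7b*.

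Other genes followed the same profile over the 9 libraries. The neurexin, neuroligin and LRRTM gene with the highest input level were *Nrxn2*, *Nlgn2* and *Lrrtm1*. By Pearson's r of log2 CPM over 9 libraries, which fall into the 3 conditions, *Nrxn2* was most like *Map4* (r = 0.995), *Fzd7* (0.967) and *Nhsl1* (0.959), *Nlgn2* was most like *Csk*, *D2hgdh* (both 0.995) and *Map3k20* (0.994), and *Lrrtm1* was most like *Idi1* (0.979), *Zfp868* (0.969) and *Abhd4* (0.967). The profile of *Nlgn2* was common, with 621 genes at r above 0.95, while *Nrxn2* had 8 and *Lrrtm1* 9.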

How the data were processed

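Each of the 3 conditions gave 3 RNA samples, which were depleted of rRNA and sequenced from directional libraries. The authors deposited 1 table of estimated counts per RefSeq transcript, not scaled for depth or length. Per the labels and the study's methods, reads were trimmed with fastp 0.23.4, cleared of rRNA reads with Ribodetector 0.3.1 and pseudoaligned with kallisto 0.51.1. The processing notes name mm10 and the methods an Ensembl transcriptome, while the rows carry RefSeq accessions. The strand setting of kallisto is not given in the sources used here, so reads of overlapping antisense genes may not be told apart.

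Estimated counts were summed per gene (86714 of 107384 rows matched to a gene, 20670 did not), rounded, and tested with edgeR 4.0.16 in R 4.3.3 (quasi-likelihood, TMM over protein-coding genes, at least 0.5 CPM in 3 of 9 libraries, 1 mean per condition over all 9 libraries). DESeq2 1.42.0 was an alternative, with other scalings, filters, call rules, a replicate block, curated transcripts alone and each library left out. The test script was tested on simulated data. Gene positions come from a RefSeq gene table of GRCm38.p6. Pearson's r of deviations between same-numbered libraries was 0.185, 0.122 and 0.212 for CELF2-KI RIP with input, -0.07 to 0.04 for the 2 pull-downs and 0.01 to 0.09 for IgG RIP with input (11532 genes). Every r exceeded 0.1 only for CELF2-KI RIP with input. Libraries with different numbers were not compared, so these values cannot settle which libraries share a lysate. Total estimated counts were 15919600 to 20052716, 17365561 to 28773130 and 69125700 to 105116427 for the CELF2 antibody, for IgG and for input. The depth limits low genes most.

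The 9 genes and the lists were chosen with earlier results of these data known. Named in the text are the 9 genes, up to 4 rows per gene by mean level and rows that go against their gene with a call, up to 4 genes of each list called higher or lower than both controls, the alpha-catenins, and the 3 genes most like the neurexin, neuroligin and LRRTM gene highest in input. A further 2 rows are named besides, and 1 item is not reported here.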

Additional observations from a re-analysis of the deposited data

How the results depend on the processing

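The counts of the 9 genes changed with scaling and with the call rule. Higher than IgG RIP were 2 genes, but 1 with total counts, upper quartile, TMM over coding and noncoding genes or glmTreat. The number was 3 with curated transcripts, 4 at an FDR under 0.05 with no fold limit and 2 to 3 without 1 library. Lower than IgG RIP was 1, but 0 with glmTreat. Higher than input were 3, but 1 with DESeq2 size factors, upper quartile, DESeq2's Wald test or a fit of the 2 conditions alone, and 0 with the other 2 scalings or glmTreat. The number was 2 with no filter or curated transcripts, 4 at an FDR under 0.05 and 2 to 3 without 1 library. Lower than input was 1, but 2 under the 4 scalings, the Wald test, the 2 conditions alone or an FDR under 0.05. In IgG RIP over input, 0 were higher (2 at an FDR under 0.05; 0 to 2 without 1 library) and 1 lower (0 with glmTreat or the 2 conditions alone; 5 at an FDR under 0.05; 0 to 1 without 1 library). Higher than both controls was 1, but 0 under the 4 scalings, the Wald test, glmTreat or the 2 conditions alone, 3 at an FDR under 0.05 and 1 to 2 without 1 library; lower than both was 1, but 0 with glmTreat. The cause was not tested.

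Extracellular partners higher than both controls numbered 2, 1 with the replicate block, 0 under the 4 scalings, either other filter, the Wald test, glmTreat, the 2 conditions alone or curated transcripts, 8 at an FDR under 0.05 and 0 to 2 without 1 library. Intracellular partners numbered 1 (0 under the 4 scalings, the Wald test, glmTreat or the 2 conditions alone; 3 with curated transcripts or an FDR under 0.05; 0 to 2 without 1 library) and, lower than both, 3 (1 with glmTreat). Other adhesion genes numbered 7 (3 with total counts, TMM over all genes or curated transcripts; 4 with upper quartile; 1 with glmTreat; 17 at an FDR under 0.05) and, lower than both, 0 (2 at an FDR under 0.05). Alpha-catenins lower than both numbered 0 (1 with total counts, upper quartile, TMM over all genes, curated transcripts or an FDR under 0.05; 0 to 1 without 1 library).

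For transcript rows, the replicate block left 1 of 4 higher and, without 1 library, 2 to 4 remained in number; lower than IgG RIP was 1 (0 to 1). Against input, 0 were higher (0 to 1) and 2 lower (1 with the block; 1 to 2). For IgG RIP over input, 0 were higher (0 to 1) and 1 lower (0 with the block; 0 to 3). Unequal usage over input was called for 1 gene in CELF2 RIP (0 to 1) and 2 in IgG RIP (1 to 3). The block changed no call of a gene among the 9.

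Values that turned sign were mostly near 0. *Nrxn2* in IgG RIP over input was 0.06 on the log2 scale, but -0.013 with DESeq2 size factors or the Wald test, -0.035 with total counts, -0.11 with TMM over all genes and -0.11 to 0.28 without 1 library. *Nlgn1* over input was -0.022 with total counts. *Lrrtm4* was 0.37 over input with curated transcripts and -0.035 in IgG RIP over input with TMM over all genes. *Nrxn3* with curated transcripts, which hold few of its counts, was -0.51 over input and -12.3 in IgG RIP over input. *Lrrtm3* to *Lrrtm4* between the pull-downs ran from -0.11 to 0.13 without 1 library. *Ctnna2* over IgG RIP was -0.25, -0.15 and -0.10 with total counts, upper quartile and TMM over all genes, and -0.21 in IgG RIP over input with curated transcripts. *Ctnna3* over IgG RIP was 0.013 with the replicate block, 0.65 with curated transcripts and -1.06 to 1.41 without 1 library, and in IgG RIP over input -0.23 with curated transcripts and -0.85 to 1.63. In IgG RIP over input, *Adgrl1* was -0.023 with TMM over all genes. *Igsf9* was 0.021 with upper quartile, 0.011 at 2 CPM, 0.96 with curated transcripts and -0.093 to 0.065 without 1 library. *Lin7b* was -0.0071 with total counts, -0.080 with TMM over all genes and -0.028 to 0.29. *Lrfn5* was -0.039 with DESeq2 size factors or the Wald test, -0.061 with total counts, -0.14 with TMM over all genes and -0.0023 to 0.044.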
